A study of Mus musculus with 17 samples.

Results

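The interleukin-1 (IL-1) family cytokine genes Il1a, Il1b, Il18 and Il1rn were examined in maps of RNA polymerase II from mouse bone marrow-derived macrophages. They were chosen by name, 4 of 21887 annotated protein-coding genes, with earlier results of these data known. Every polymerase summit within the annotated gene or 1 kb on either side was assigned to the gene. Chromatin was immunoprecipitated with the AbFlex RNA Pol II antibody from cells that were wild type (WT) or knocked out for N4bp1 (KO). The cells were untreated or had been given R837, also called imiquimod, which activates the RNA receptor TLR7 in endosomes. Treatment lasted 2, 4 or 6 h. This gave 8 groups of 2 libraries, 16 in all. N4BP1 is known to restrain the output of inflammatory cytokines, and the comparisons ask which genes gained polymerase after TLR7 stimulation and whether that differed without N4bp1. The labels give neither the deleted part of N4bp1 nor the age, sex or number of the animals, and they do not say whether the 2 libraries of a group came from separate cultures. The p-values therefore reflect the spread among these libraries alone, and that spread may be technical.

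IL-1 alpha and IL-1 beta are ligands of the same receptor and set off inflammation through MyD88 and NF-kB. The receptor antagonist, encoded by Il1rn, binds that receptor without signalling, and IL-18 acts through its own receptor to drive interferon gamma production. IL-1 beta and IL-18 are made as inactive precursors that inflammasome caspases cut, so transcription of Il1b in a stimulated macrophage is the priming step of a process completed in the cytosol. Il1b is a textbook gene of the rapid response to Toll-like receptors, whereas Il18 is known to be transcribed more steadily.

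On GRCm38 Il1a (gene ID 16175) spans chr2:129299609-129310186 on the minus strand, and Il1b (16176) spans chr2:129364569-129371164 on the same strand. Il1rn (16181) lies elsewhere on that chromosome, at chr2:24336860-24351491 on the plus strand, with 3 annotated starts at 24336860, 24345291 and 24345371. Il18 (16173) spans chr9:50554700-50581841 on the plus strand. The maps do not tell strands apart, and 3 of the genes share ground with another annotated gene. The non-coding gene Il1bos covers the Il1b start, Gm14023 overlaps Il1a, and Bco2, which encodes a carotenoid-cleaving enzyme, overlaps the Il18 start.

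The sequences before the annotated starts are shown for the 3 genes whose best summits were ranked high enough to be tested, because the summits lay at some of these starts and not at others. They are from RefSeq on GRCm38.p6, 5′ to 3′ on the gene's strand, and end at the base before the start, or for Il1b at the edge of the annotated gene. Capitals mark motif matches. All 4 genes were found in that table. The window before the third Il1rn start is not shown.
Il1b, chr2:129371165-129371389, minus strand: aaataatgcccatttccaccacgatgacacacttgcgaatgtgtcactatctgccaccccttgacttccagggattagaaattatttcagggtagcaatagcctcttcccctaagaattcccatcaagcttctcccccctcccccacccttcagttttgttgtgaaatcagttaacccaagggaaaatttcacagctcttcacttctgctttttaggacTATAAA
Il1rn first start, chr2:24336610-24336859, plus strand: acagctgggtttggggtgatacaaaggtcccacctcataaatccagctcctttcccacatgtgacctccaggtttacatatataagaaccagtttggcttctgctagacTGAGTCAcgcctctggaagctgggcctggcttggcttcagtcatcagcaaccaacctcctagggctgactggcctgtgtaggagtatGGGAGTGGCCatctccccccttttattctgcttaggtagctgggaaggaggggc
Il1rn second start, chr2:24345041-24345290, plus strand: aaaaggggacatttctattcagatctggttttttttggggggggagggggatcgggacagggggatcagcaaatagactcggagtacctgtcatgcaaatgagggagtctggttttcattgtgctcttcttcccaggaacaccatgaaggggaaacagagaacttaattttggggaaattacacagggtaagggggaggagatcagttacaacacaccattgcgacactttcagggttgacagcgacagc
Il18, chr9:50554450-50554699, plus strand: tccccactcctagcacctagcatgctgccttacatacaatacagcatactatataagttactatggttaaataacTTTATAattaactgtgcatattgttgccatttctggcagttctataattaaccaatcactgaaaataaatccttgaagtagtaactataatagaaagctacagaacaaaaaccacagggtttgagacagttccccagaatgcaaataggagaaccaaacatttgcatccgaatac

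Both strands of each sequence were searched for NF-kB (GGG and CC with any 5 bases between them), AP-1 (TGANTCA), C/EBP (TTGCNNAA), IRF (GAAA and GAAA with any 2 bases between them), PU.1 (GAGGAA) and the TATA box (TATAAA), and matches of different motifs were allowed to overlap. The Il1b sequence held a TATA box 31 bases before the start, a feature of 12.4% of 32851 promoters of 250 bases searched in the same way. The sequence before the first Il1rn start held an NF-kB match 54 bases before the start and an AP-1 match 141 bases before it, against 45.8% and 6.75% of all promoters. The sequence before the second Il1rn start held none of the 6 motifs. Matches before the third Il1rn start are not reported here, so the later pair of starts is only partly described. In the Il18 sequence the TATA box letters appeared on the other strand, 175 bases before the start and inside the annotated span of Bco2. C/EBP, IRF and PU.1 letters, present in 9.56%, 2.98% and 23.3% of promoters, were in none of these windows. A match is only a description of the letters, and a missing match says nothing about the factor.

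The deposited lists held 8394 to 29760 summits per library and no read counts, so read depth is unknown and a gene without a summit is not shown to lack polymerase. To make ranks comparable, only the best 8394 summits of a list were used, and a gene whose best summit had a given rank scored log2 of 8395 over that rank. It runs from 0 (no summit in the shortened list) to 13.04 (the top summit) and is a place in a list, not an amount of polymerase. The labelled cell type was checked on markers. Of 10 macrophage markers 9 to 10 had a summit in the untreated lists as deposited and 7 to 9 in the treated lists, where Mrc1 had none. Of 8 neutrophil markers none had a summit in untreated and 0 to 2 in treated lists, with a summed rank score of 0 to 3.01, and S100a9, Ly6g, Elane, Mpo, Cxcr2 and Ltf were at 0 throughout. A bulk map cannot tell a change in the share of cells that carry polymerase at a gene from a change per cell. Markers of dendritic cells (1 to 2 of 6), T and NK cells (0 to 2 of 7) and B cells (0 to 1 of 5) had summits in the same numbers in untreated and treated lists. The summed rank score of the dendritic markers was 1.81 to 2.96 in untreated and 0.54 to 7.31 in treated lists, with Siglech, Clec9a and Dpp4 at 0 throughout, and its part in the results was not tested. None of 5 mast cell and basophil or 5 fibroblast markers had a summit in any list. N4bp1 itself had a summit in all 16 deposited lists, KO included, so the maps do not check the genotype labels. Replicate 2 of KO at 6 h stood apart, with a highest deposited score of 563.5 against at most 320.4 elsewhere, and no other list held more than 0.087% of its score values. Other lists shared up to 96.667% of theirs, and for all 16 the list sharing most belonged to another group. Peak-name codes put untreated and 2 h libraries in 1 series and 4 h and 6 h libraries in series of their own, so at 4 and 6 h time and series cannot be told apart.

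None of the 4 genes had a summit in any of the 4 untreated libraries, even in the full lists of 20607 to 24720 summits. After R837 Il1b and Il1rn had a summit in all 12 treated libraries, Il18 in 5 and Il1a in 2. The genes therefore fell into a pair with polymerase in every treated library and a pair with low-ranked summits in a few.

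**Figure D1:**
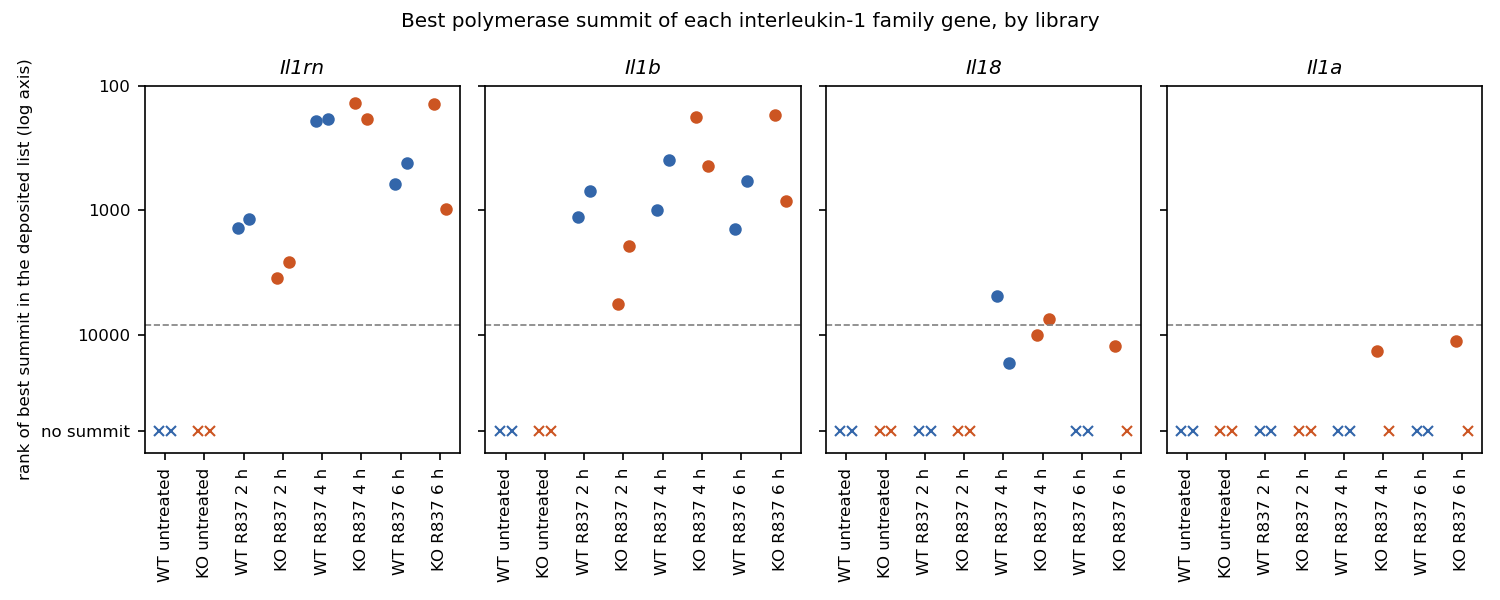
The rank of the best summit of each gene in each library as deposited (log axis, best rank at the top; each point is 1 library, WT in blue and KO in orange, crosses mark no summit) is shown for the 8 groups. Il1rn and Il1b lie above the dashed line at rank 8394 in all 12 treated libraries, while all crosses of the untreated groups lie at the bottom.

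Il1b, the precursor gene of secreted IL-1 beta, ranked 1137 and 703 in the WT libraries at 2 h (replicates 1 and 2). In KO at 2 h its ranks were 5723 and 1947. At 4 h they were 986 and 395 in WT and 177 and 440 in KO. At 6 h they were 1417 and 578 in WT and 171 and 847 in KO. Every treated library lay above every untreated one, and the 2 KO libraries at 2 h lay below the other 10 treated libraries. Mean rank scores of Il1b were highest in KO at 4 h, 4.91 ± 0.93 (SD, n = 2 here and below), and in KO at 6 h, 4.46 ± 1.63. WT followed with 3.75 ± 0.93 at 4 h, 3.23 ± 0.49 at 2 h and 3.21 ± 0.91 at 6 h. KO at 2 h was last of the treated groups with 1.33 ± 1.1. From KO at 4 h down to WT at 6 h neighbouring groups overlapped, and only the step to KO at 2 h separated them.

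Il1rn, the receptor antagonist gene, ranked 1390 and 1180 in WT at 2 h and 3529 and 2582 in KO at 2 h. At 4 h it ranked 192 and 183 in WT and 138 and 183 in KO. At 6 h it ranked 611 and 416 in WT and 140 and 982 in KO. All 4 libraries at 4 h ranked it above all 4 libraries at 2 h, in both genotypes. Mean rank scores of Il1rn were 5.72 ± 0.29 in KO and 5.49 ± 0.05 in WT at 4 h, then 4.5 ± 1.99 in KO and 4.06 ± 0.39 in WT at 6 h. At 2 h they were 2.71 ± 0.17 in WT and 1.48 ± 0.32 in KO. The 4 h groups overlapped each other, as did the 6 h groups, while WT at 6 h, WT at 2 h and KO at 2 h were separate from one another. The replicates at 4 h were close, and those of KO at 6 h were far apart.

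Il18 was ranked low wherever it was found. In WT at 4 h its best summit ranked 4889 and 16912, in KO at 4 h 10039 and 7451, and in replicate 1 of KO at 6 h 12393. It had no summit in the other 11 libraries, all 2 h libraries among them, so 2 shortened lists held it. The 5 summits lay between 50554743 and 50554903, 43 to 203 bp after the Il18 start. All 5 also lay in the region of Bco2, whose rank scores equalled those of Il18 in all 16 libraries, and the maps cannot assign them to either gene.

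Il1a, the gene of IL-1 alpha, had 4 summits in 2 libraries. Replicate 1 of KO at 4 h held 129302456 at rank 13592 and 129306189 at rank 22201, both inside the gene. Replicate 1 of KO at 6 h held 129309988 at rank 11256, 16 bp before the start, and 129300717 at rank 17579, near the other end of the gene. None was in a shortened list, so Il1a was not tested in the main analysis. Both libraries were KO, and the KO lists at 4 and 6 h (22157 to 29760 summits) were longer than the WT lists at those times (8394 to 19710). Whether list length has a part in this was not tested. With the lists as deposited, the Il1a rank score differed by 0.32 ± 0.17 between KO and WT treated libraries (SE; adjusted p = 0.233, limma).

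Over both genotypes and all times, Il1b and Il1rn rose after R837. The Il1rn rank score was 3.99 ± 0.42 higher in treated than in untreated libraries (SE; adjusted p = 1.86e-05, limma). For Il1b the difference was 3.48 ± 0.49 (adjusted p = 0.000152, limma). Both were higher in 12 of 12 treated libraries. Exact permutation of the treatment labels within genotype gave p = 0.00128 for each (two-sided, 784 relabellings), the smallest value that they can give. Il18 differed by 0.08 ± 0.10 (adjusted p = 0.578, limma, and exact permutation p = 0.812). Only 2 shortened lists held Il18, so its permutation could not have given a p under 0.05 and does not decide whether it rose. Of 8475 tested genes, 5.79% were called higher and 29.5% lower, and the median gene changed by −0.33. The shortened lists held 6430 to 6689 genes in untreated and 2693 to 5885 in treated libraries, and the part of this in the lower calls was not tested. With 1 rank per gene in place of 1 rank per summit the median gene changed by 0.04 and the calls were 418 higher and 626 lower, in place of 491 and 2502, while Il1b (2.23) and Il1rn (2.65) stayed called. Il1b and Il1rn were at 0 in every untreated library. The differences therefore count from the end of the shortened list, and their size depends on its length. Both genes also entered the tested set through treated lists alone. With no filter on genes both stayed called (adjusted p = 0.00015 for Il1b and 2.22e-05 for Il1rn, limma). Limited to 2 h, where libraries share a code series with the untreated ones, Il1b rose by 2.28 ± 0.60 (adjusted p = 0.0129, limma) and Il1rn by 2.09 ± 0.52 (adjusted p = 0.00929, limma), against 4.84% of genes called higher.

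In WT, each time was set against the same 2 untreated libraries. Each SE came from 1 spread per gene shared by all 8 groups. For Il1b and Il1rn both untreated groups had an SD of 0. Il1rn was higher by 2.71 at 2 h, by 5.49 at 4 h and by 4.06 at 6 h, each with an SE of 0.73 (limma adjusted p of 0.0234, 0.000425 and 0.00298). Il1b was higher by 3.23, 3.75 and 3.21 at these times, each with an SE of 0.85 (limma adjusted p of 0.0198, 0.0104 and 0.0199). The shares of all genes called higher were 3.53%, 3.52% and 3.1%. Both genes passed this test at each time in WT, with Il1rn furthest from untreated at 4 h, but all 6 calls were lost under at least 1 other setting. Il18 at 4 h was 0.39 ± 0.18 higher (adjusted p = 0.179, limma). Without replicate 2 of WT at 4 h the value was 0.78 with an adjusted p of 0.00244, which is the score of the 1 library left, with a spread taken from groups that were nearly all at 0.

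In KO, Il1rn was higher by 1.48 at 2 h, by 5.72 at 4 h and by 4.5 at 6 h, each with an SE of 0.73 (limma adjusted p of 0.221, 0.000331 and 0.00142). Il1b was higher by 1.33, 4.91 and 4.46 at these times, each with an SE of 0.85 (limma adjusted p of 0.348, 0.00225 and 0.00335). The shares called higher were 2.63%, 3.79% and 5.13% of genes. At 2 h neither gene passed the test on rank scores in KO, although both had a summit in both libraries and in neither untreated one. On numbers of summits, both were called at 2 h in KO (Il1b 1.90, adjusted p = 0.0266, and Il1rn 1.58, adjusted p = 0.000775), while the Il1b calls were lost at 4 h (0.0719) and 6 h (0.257). Il18 at 4 h differed by 0.09 ± 0.18 (adjusted p = 0.846, limma).

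Several calls at single times were lost when 1 library was left out, and a group left with 1 library was assumed to vary like the other groups. Such a loss need not mean a changed value. Without either untreated WT library the Il1b change in WT at 2 h stayed 3.23, and its SE was 1.11 against 0.85. The Il1b and Il1rn calls in WT at 2 h were lost without either untreated WT library or either 2 h library, with adjusted p from 0.0652 to 0.137 for Il1b and 0.076 to 0.126 for Il1rn. The Il1b call in WT at 4 h was lost without untreated replicate 2 (adjusted p = 0.0522) or 4 h replicate 2 (0.0941). The Il1b call in WT at 6 h was lost without untreated replicate 1 (0.0771), untreated replicate 2 (0.087) or 6 h replicate 2 (0.153). Il1rn in KO at 2 h passed the test when either KO library at 6 h was left out (adjusted p = 0.0411 and 0.0409). Among the other settings, lists of 4000 summits, no filter on genes and 1 rank per gene ended the WT calls of Il1b at 2 h (adjusted p = 0.0987, 0.0532 and 0.142), of Il1rn at 2 h (0.16, 0.0983 and 0.228) and of Il1b at 6 h (0.1, 0.0518 and 0.144). With 1 rank per gene Il1b in WT at 4 h was also lost (0.0711). Without a flank Il1b was lost in WT at 2 h (0.115) and 6 h (0.0523) and in KO at 4 h (0.0567). With only the compared groups in the fit, no call of a member at a single time held (adjusted p from 0.0579 to 0.145).

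**Figure D2:**
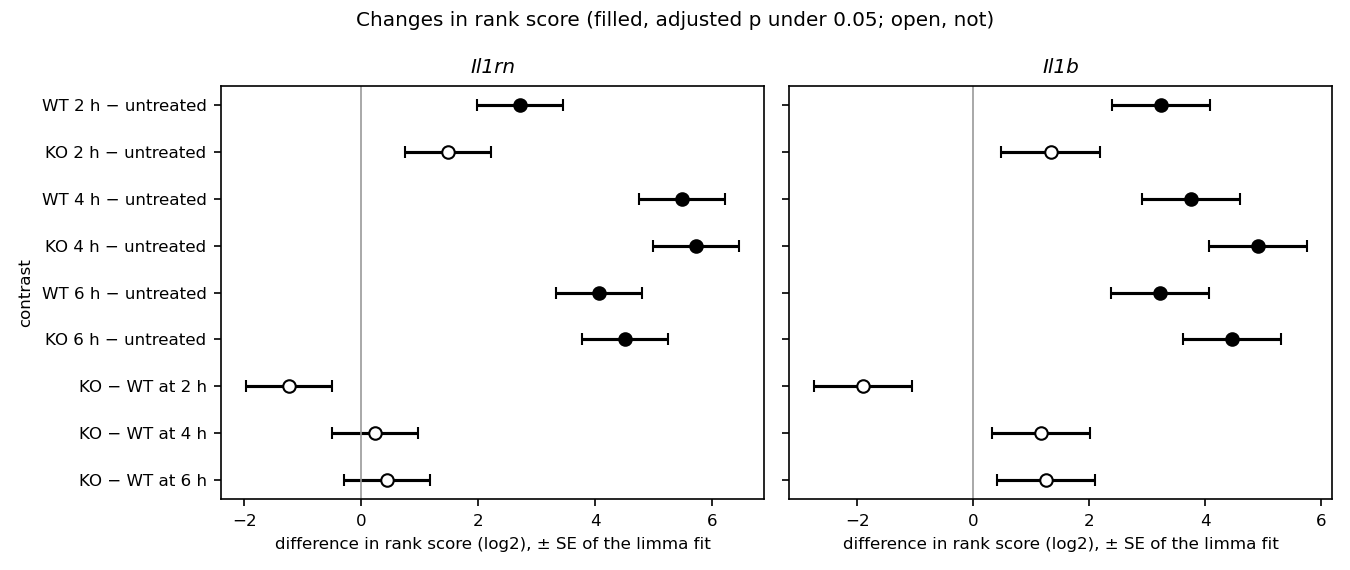
Differences in rank score (log2, points; bars are ± 1 SE of the limma fit) are shown for Il1rn and Il1b at each time against untreated and for KO against WT at each time, with filled points where the adjusted p was under 0.05. In both genes the 4 h and 6 h points of both genotypes and the WT 2 h points are filled, and the KO minus WT points are open at all times.

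No member was called between the genotypes over the treated times, and none of the 3 tested had an unadjusted p under 0.05 by limma, as 12.2% of all tested genes had. Il1b was 0.17 ± 0.49 higher in KO than in WT (adjusted p = 0.989, limma; exact permutation p = 0.833, two-sided). Il1rn was 0.19 ± 0.42 lower (adjusted p = 0.961, limma; exact permutation p = 0.759). Il18 was 0.10 ± 0.10 lower (adjusted p = 0.772, limma; exact permutation p = 1.0). The permutations within times, 216 in number, could have given a p as small as 0.00926 for Il1b. The smallest possible p was larger for Il1rn, which had tied ranks of 183 at 4 h in WT and KO. It was larger still for Il18, which only 2 shortened lists held, so its permutation could not have given a p under 0.05. Of all genes, 0.755% were called in either direction. The response to R837 in KO minus that in WT had the same values, since untreated libraries were all at 0, with larger errors (0.98 for Il1b, 0.85 for Il1rn and 0.21 for Il18) and adjusted p of 0.968, 0.958 and 0.901 (limma, 0.897% of genes called). The sign of these small differences turned when single libraries were left out.

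At 2 h both KO libraries ranked Il1b and Il1rn below both WT libraries, the 1 treated time at which the genotypes did not overlap for either gene. The difference was −1.90 ± 0.85 for Il1b (unadjusted p = 0.0427, adjusted p = 0.93, limma) and −1.24 ± 0.73 for Il1rn (adjusted p = 1, limma), and 0.0708% of genes were called. Neither passed the correction. Replicate 1 of KO at 2 h held 4984 genes in its shortened list against 3277 to 3645 in the other 2 h libraries, and the part of this in the result was not tested. Without that library the differences were −1.12 for Il1b and −1.01 for Il1rn, and without replicate 2 of KO they were −2.68 and −1.46. At 4 h the groups overlapped, with differences of 1.16 ± 0.85 for Il1b (adjusted p = 0.968), 0.24 ± 0.73 for Il1rn (adjusted p = 1) and −0.30 ± 0.18 for Il18 (adjusted p = 0.87), by limma, and 0.401% of genes called. Without replicate 2 of WT at 4 h the Il18 difference was −0.69 (adjusted p = 0.0157), with 1 WT library left and a spread taken from groups nearly all at 0. At 6 h Il1b differed by 1.25 ± 0.85 (adjusted p = 0.607) and Il1rn by 0.44 ± 0.73 (adjusted p = 1), by limma, against 1.33% of genes called. Leaving out 1 library moved the Il1b value to 0.096 or 2.40 when KO replicate 1 or 2 of that time was dropped, and to 0.60 or 1.90 when WT replicate 1 or 2 was. Without both replicate 2 libraries at 6 h it was 3.05 (adjusted p = 0.288). Untreated libraries gave no difference, since all were at 0, with 1.43% of genes called.

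From 2 h to 6 h Il1rn rose in KO by 3.03 ± 0.73 (adjusted p = 0.0319, limma), while Il1b changed by 3.13 ± 0.85 (adjusted p = 0.0512), with 3.29% of genes called higher. In WT the same difference was 1.34 ± 0.73 for Il1rn (adjusted p = 0.551) and −0.02 ± 0.85 for Il1b (adjusted p = 1), by limma, with 1.07% called higher. The KO call of Il1rn was lost in 9 of 16 fits without 1 library: each of the 4 untreated libraries, each of the 4 libraries at 2 h and replicate 1 of KO at 6 h (adjusted p up to 0.153). It was also lost with 1 rank per gene (0.0628), with numbers of summits (0.605), with no filter (0.127) and with only the compared groups (0.506). Il1b in KO passed when replicate 2 of KO at 6 h was left out (4.29, adjusted p = 0.0303), with lists as deposited (4.30, adjusted p = 0.00698), with a 3 kb flank (0.0463) and with a filter of 4 lists (0.0345). The difference between the genotypes in this change, tested after the values of each genotype had been seen, was 3.15 ± 1.20 for Il1b (unadjusted p = 0.0207, adjusted p = 0.523) and 1.68 ± 1.04 for Il1rn (adjusted p = 0.869), by limma, with 0.0944% of genes called. The late change is therefore not shown to differ between KO and WT, and the series of peak codes differs between 2 h and 6 h.

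The place of the summits within the genes differed between Il1b and Il1rn. Il1b had 34 summits in the 12 treated libraries, 22 in the body of the gene in 11 libraries, 6 after its 3′ end in 6 libraries and 6 within 500 bp of the start in 6 libraries. Those at the start lay between 129371077 and 129371333, from 194 bp before the start to 62 bp after it, at ranks 1909 to 4931. They were found in replicate 1 of WT at 2 h, in all 4 libraries at 4 h and in replicate 1 of WT at 6 h. The best Il1b summit never lay at the start. In 9 libraries it lay in the body and in 3 beyond the 3′ end, 766 to 7130 bp after the start. Il1bos covers the start, and reads of the 2 genes cannot be told apart there.

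Il1rn had 43 summits in the 12 treated libraries. Each library had 1 at the later pair of annotated starts, between 24345417 and 24345542, which is 126 to 251 bp after 24345291 and 46 to 171 bp after 24345371, the nearer of that pair. The summits do not show which of the pair was used. No library had a summit within 500 bp of the first start, the one whose upstream sequence held the NF-kB and AP-1 letters. All 12 libraries also had summits in the body of the gene, and the best summit was at a start in 4 and in the body in 8. At 4 h all 4 libraries held a further summit between 24341599 and 24341991, 3300 to 3692 bp before the second start and inside the annotated gene. Its ranks were 8353 and 2132 in WT and 3284 and 2245 in KO, and no library at another time held it.

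**Figure D3:**
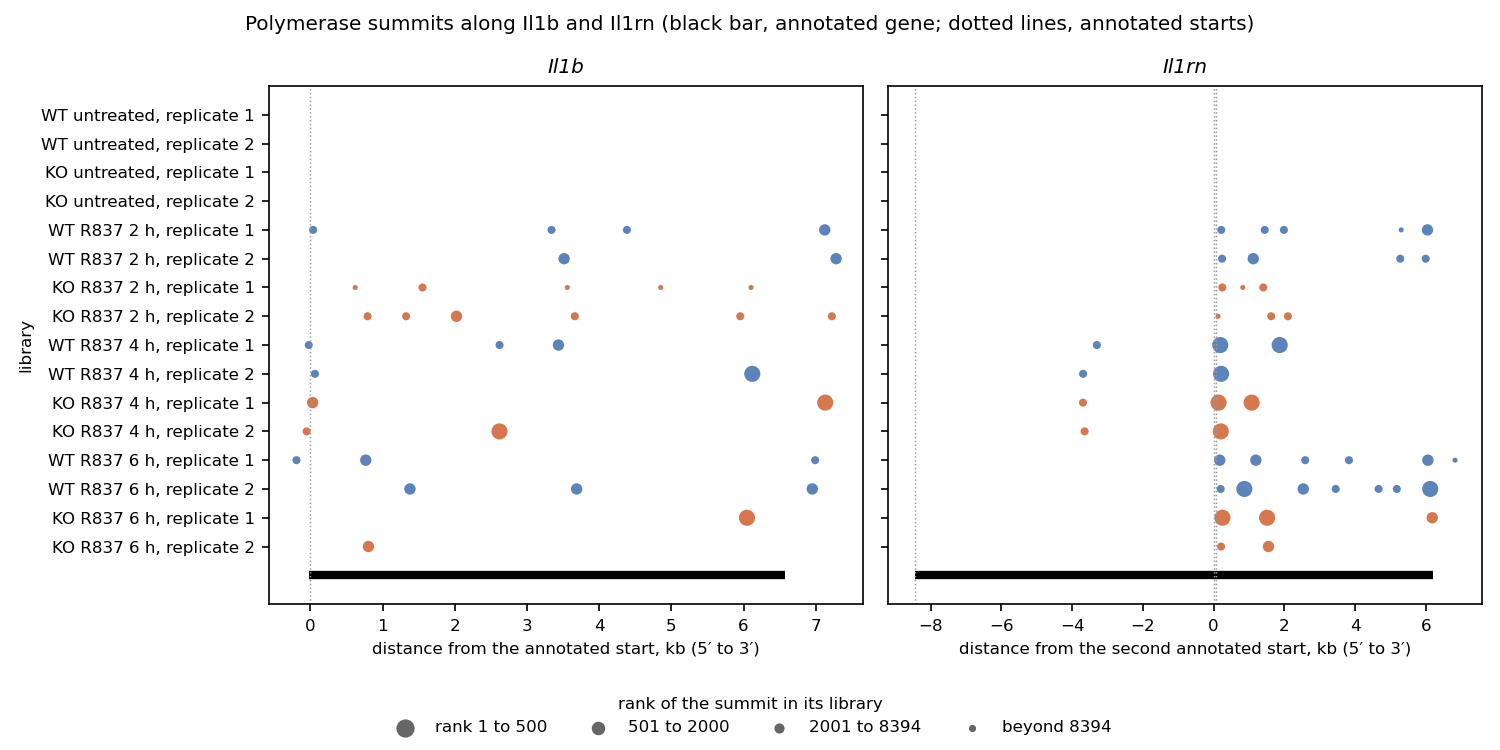
Each point is 1 summit in the lists as deposited, placed by its distance in kb from the Il1b start or from the second Il1rn start (x axis) and by library (y axis), with larger points for better ranks; black bars are the annotated genes. Il1b summits are spread from the start to beyond the 3′ end, while each treated library has an Il1rn summit just after the later pair of starts and the 4 libraries at 4 h have another 3300 to 3692 bp before 24345291.

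The number of summits in a gene was also compared. In the shortened lists the 6 treated WT libraries held 25 Il1rn summits, 2 to 7 each with a median of 4, and the 6 treated KO libraries held 14, 2 to 3 each with a median of 2. For Il1b the totals were 17 in WT (2 to 4, median 3) and 13 in KO (1 to 6, median 1.5). The deposited lists of treated KO libraries were the longer ones (median 23414 against 13700.5 summits). On the log2 scale of the number plus 1, Il1rn was 0.58 ± 0.12 lower in KO over the treated times (adjusted p = 0.0315, limma) and 1.0 ± 0.20 lower at 6 h (adjusted p = 0.0445), while Il1b differed by −0.42 ± 0.27 over the treated times (adjusted p = 0.566). For Il1rn the difference in number was −0.74 at 2 h and 0 at 4 h (limma adjusted p of 0.246 and 1), and the response in KO minus that in WT was −0.58 ± 0.23 (adjusted p = 0.471). The share of all genes called on this scale is not given here. In rank score, Il1rn in KO minus WT was −0.185 over the treated times and 0.44 at 6 h, and neither was called. A number of summits is not an amount of polymerase. How near to each other 2 summits must lie to be called as 1 is not given in the sources used here.

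Outside the genes, sites were taken as summits linked within 500 bp, lying within 50 kb of a member and present in at least 4 deposited lists. A site between 129373477 and 129373637, a median of 2389 bp before the Il1b start and inside Il1bos, was present in 9 lists, 3 of them untreated. These were both untreated WT libraries, 1 untreated KO library, all 4 libraries at 4 h and both KO libraries at 6 h, at ranks 2101 to 19358, and none at 2 h or in WT at 6 h. The site was thus present before treatment, when Il1b itself had no summit. Its untreated ranks were 6954, 11527 and 15718. The lists at 2 h (9402 to 13825 summits) and of WT at 6 h (17007 and 8394) were shorter than the untreated lists. The part of list length in the absence of the site there was not tested. Between Il1b and Il1a a site at 129320012 to 129320365, 10327 bp before the Il1a start, was present in 6 lists. These were 1 untreated WT, 4 treated KO and 1 treated WT list. Another at 129338433 to 129338515, 28493 bp before that start, was present in 4 lists, and neither site was found at 2 h. On the other side of Il1a, a site at 129297186 to 129297997 in the region of Ckap2l was present in 7 lists. These were 1 untreated WT, 2 untreated KO and 4 treated KO lists. Not all sites found are described here, and none near Il18. Upstream of Il1rn a site at 24335492 to 24335722, 1290 bp before the first start, was present in 5 lists at 4 h and 6 h. Sites at 24304360 to 24305483 and 24306175 to 24307127, 32064 and 30039 bp before that start, were present in 7 lists each, all at 4 h or 6 h. KO libraries made up 4 of the lists at each of these 3 sites, and the KO lists at 4 h and 6 h were longer than the WT lists at those times, a difference whose part in this was not tested.

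**Figure D4:**
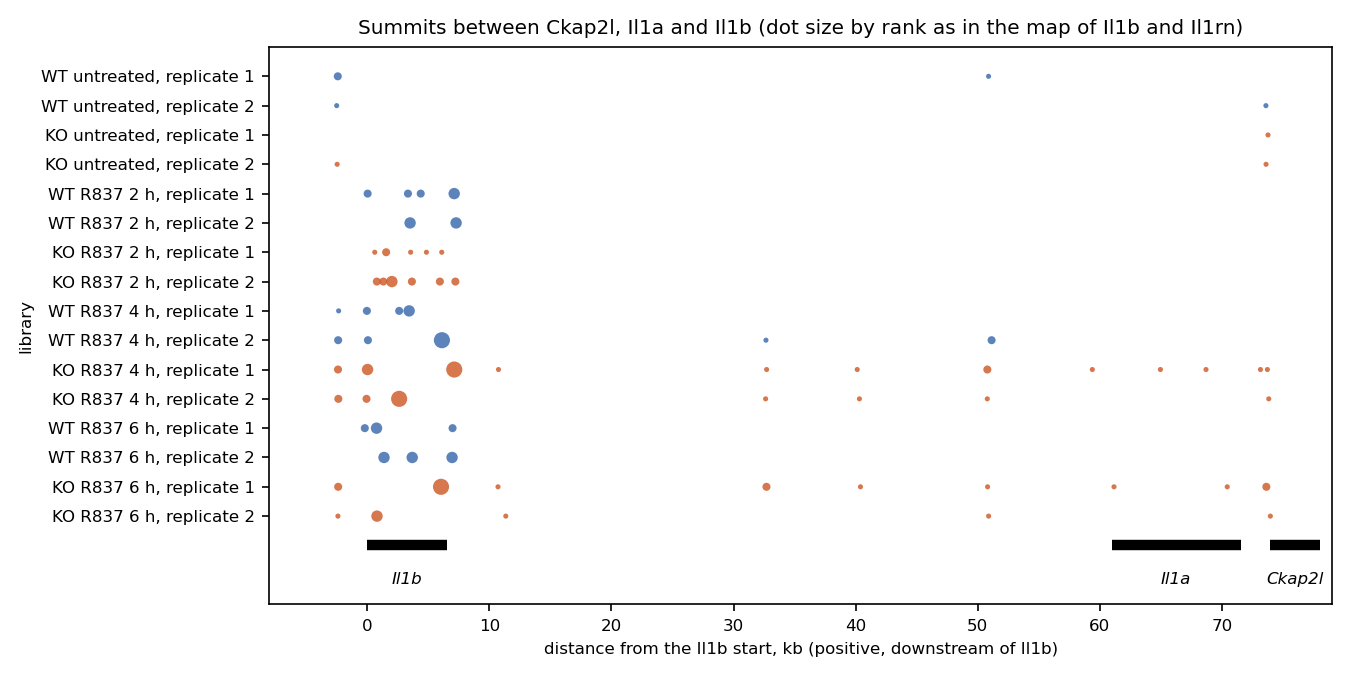
Summits of the deposited lists between Ckap2l, Il1a and Il1b are placed by distance in kb from the Il1b start (x axis, positive downstream of Il1b) and by library (y axis), with larger points for better ranks; black bars are the annotated genes. Il1b carries summits in all 12 treated libraries, Il1a carries small points in 2 KO libraries only, and the site before the Il1b start is present in 3 untreated lists.

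Il1b and Il1rn varied together across the study. Their rank scores had a Pearson correlation of 0.96 over the 8 group means, 0.943 over the 16 libraries and 0.852 over the 12 treated libraries, values that share libraries and list composition and are given as a description. The genes most like Il1b over the 8 group means were Rnf149 (a ubiquitin ligase, r = 0.992), Ets2 (a transcription factor, r = 0.991) and Rhbdf2 (iRhom2, needed for the release of TNF, r = 0.978). Those most like Il1rn were Fcgr2b (the inhibitory Fc receptor, r = 0.978), Rnf213 (a large ubiquitin ligase, r = 0.969) and Pid1 (r = 0.969). Of 8474 genes compared, 46 had r over 0.9 with Il1b and 70 with Il1rn. Over the 16 libraries the named genes had r of 0.847 to 0.924 with Il1b and 0.927 to 0.958 with Il1rn. Trim30d, Dck and Ifi209 reached r = 1.0 with Il18 over the group means, and 1.0, 0.92 and 0.283 over the 16 libraries. That likeness rests on WT and KO at 4 h, the only groups in which the Il18 rank score was above 0.

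The other genes of the pathway were taken from a list of 40, of which 23 were tested. The list was chosen with earlier results of these data known, and its counts are given as a description. After R837, 8 rose and 3 fell, where 5.79% of all tested genes were called higher and 29.5% lower. The median change was 0.36 against −0.33 over all tested genes. Among the 8 that rose, Casp1, Casp4 and Irak3 were at 0 in every untreated library and entered the test through treated lists alone. None of the 5 other ligands (Il33, Il36a, Il36b, Il36g and Il1f10) and none of the 6 receptor genes, Il1r1 and Il1rap among them, reached the test. Of the 4 inhibitors and decoys only Il18bp, the soluble trap for IL-18, was tested. Its rank score was 0.25 to 0.80 in untreated and 0 to 0.80 in treated libraries, and it fell by 0.43 ± 0.13 (adjusted p = 0.0225, limma), a call lost without either untreated WT library (0.0582 and 0.0528) or replicate 1 of untreated KO (0.0996), with no filter on genes (0.178) or at 2 h alone (0.189).

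Of 6 tested genes for the processing and release of these cytokines, 3 rose and none fell, read against the same 5.79% and 29.5%. Nlrp3, the sensor of the inflammasome that activates caspase-1, had rank scores of 0 to 0.73 in untreated and 1.62 to 6.99 in treated libraries and rose by 5.33 ± 0.38 (adjusted p = 5.42e-07, limma). Casp4, the mouse caspase-11 gene and a sensor of cytosolic endotoxin, was at 0 in untreated and 0.20 to 5.12 in treated libraries and rose by 3.01 ± 0.45 (adjusted p = 0.000242, limma). Casp1, whose product cuts the IL-1 beta and IL-18 precursors, was at 0 in untreated and 0 to 2.94 in treated libraries and rose by 1.0 ± 0.28 (adjusted p = 0.0131, limma). The Casp1 call was lost with lists of 4000 summits (0.40, adjusted p = 0.0629), without the 1 kb flank (0.68, adjusted p = 0.258), with 1 rank per gene (0.40, adjusted p = 0.127) and at 2 h alone (0.73, adjusted p = 0.117). With a 3 kb flank Casp1 rose by 2.80 (adjusted p = 0.00103, limma), so the size of its change depended on the flank. Whether summits of a neighbouring gene entered the Casp1 value was not tested. Gsdmd, the pore-forming protein through which IL-1 beta leaves the cell, differed by 0.34 ± 0.43 (adjusted p = 0.563, limma).

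Of 16 tested signalling genes 5 rose and 2 fell (5.79% and 29.5% of all genes). Nfkbiz, which encodes an atypical IkB protein, had rank scores of 0 to 2.11 in untreated and 4.85 to 7.75 in treated libraries and rose by 5.20 ± 0.54 (adjusted p = 1.52e-05, limma). Irak3, an inhibitory kinase-like protein of the receptor complex, rose by 2.71 ± 0.42, Nfkb1, an NF-kB subunit, by 2.48 ± 0.35 and Myd88, the receptor adaptor, by 2.02 ± 0.38 (adjusted p = 0.000314, 0.000171 and 0.00133, limma). Irak2, a kinase downstream of MyD88, rose by 1.66 ± 0.35 (adjusted p = 0.00272), a call lost when the flank was widened to 3 kb (0.09, adjusted p = 0.901). Tab1, which activates the kinase TAK1, had rank scores of 1.95 to 4.46 in untreated and 0 to 1.19 in treated libraries and fell by 2.93 ± 0.42 (adjusted p = 0.000192, limma), a call lost with numbers of summits (−0.15, adjusted p = 0.747). Map3k7, the TAK1 gene, fell by 1.06 ± 0.34 (adjusted p = 0.0297, limma). That call was lost without untreated WT replicate 2 (0.15), untreated KO replicate 1 (0.11), untreated KO replicate 2 (0.0558) or WT replicate 2 at 2 h (0.0536), with lists of 4000 summits (0.197), with 1 rank per gene (0.703) and at 2 h alone (0.104). No gene of the list was called between KO and WT over the treated times by limma, and 4 of 23 had an unadjusted p under 0.05, as did 12.2% of all tested genes. Nlrp3 was 1.71 ± 0.38 higher in KO (adjusted p = 0.0621).

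**Figure D5:**
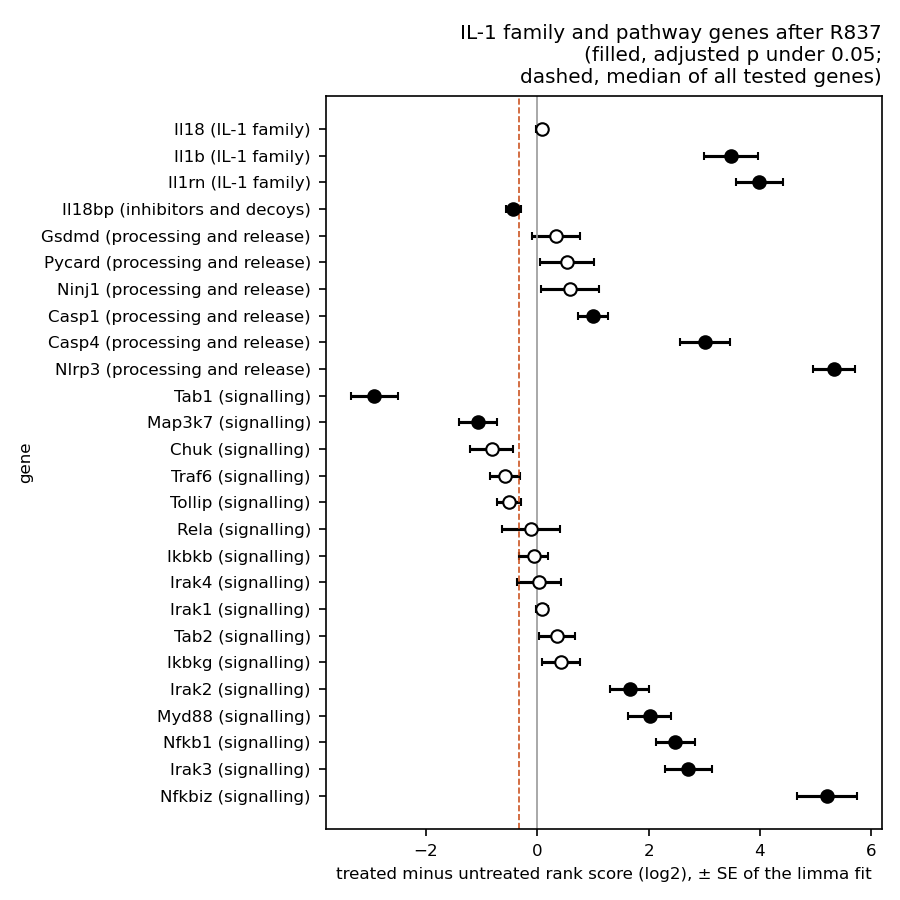
Treated minus untreated rank score (log2, points; bars are ± 1 SE of the limma fit) is shown for the 3 tested IL-1 family genes and the 23 tested pathway genes, with filled points where the adjusted p was under 0.05 and a dashed line at the median of all tested genes, −0.33. Nlrp3, Nfkbiz, Il1rn and Il1b lie furthest to the right, and Tab1 furthest to the left.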

How the data were processed

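Per the labels' protocols, polymerase II immunoprecipitates were sequenced as 75 nt single-end reads. The submitters' processing notes name GSNAP, MACS2 and GRCm38; their versions, the control and the threshold are not given in the sources used here. Replicates had not been pooled, and every deposited list gives the 1 bp summits of a single library. The authors' score, on a −log10 scale of either p or q (the files do not say which), served only to rank summits within a list. An input sample was not used here.

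Lists were shortened to 8394 summits, and the 8475 genes found in 2 or more of the 16 shortened lists were tested. The model was limma's (3.58.1, R 4.3.3) on rank scores of all 16 libraries, with a mean for each group, a variance trend and Benjamini-Hochberg adjustment at 0.05, after a test on simulated data. Errors of changes are its SE. Alternatives were lists as deposited or of 4000 summits, a 3 kb or no flank, 1 rank per gene, numbers of summits, other filters, no trend, a replicate block, only the compared groups, 2 h alone and each library left out. The members and gene lists were chosen with earlier results of these data known. Named genes were the members, genes sharing their best summit, the 3 genes most alike per member and pathway genes passing the test. Gene positions and promoter sequences came from RefSeq tables on GRCm38.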

Additional observations from a re-analysis of the deposited data

How the results depend on the processing

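The rise of Il1b and Il1rn over all treated libraries kept its call in every alternative run and in all 16 fits without 1 library. On rank scores the alternatives gave 2.23 to 4.42 for Il1b and 2.09 to 4.93 for Il1rn. On numbers of summits, a different scale, the rises were 1.71 and 2.01. The fits without 1 library gave 3.29 to 3.68 for Il1b and 3.76 to 4.23 for Il1rn. Genes called lower numbered 5354 with lists as deposited, 1324 with 4000 summits and 626 with 1 rank per gene. The small KO minus WT differences over the treated times turned sign, with the same values for the response in KO minus that in WT. For Il1b this was so without a flank (−0.17) and with numbers of summits (−0.42), and the range without 1 library was −0.21 to 0.56. For Il1rn it was so with lists as deposited (0.37) and without both replicate 2 libraries at 6 h, an alternative chosen after seeing the data (0.38), with −0.65 to 0.28 without 1 library. Numbers of summits gave a called Il1rn difference of −0.58. For Il18 lists as deposited gave 0.33, and the range was −0.23 to 0.029. At single times, numbers of summits turned Il1b in KO minus WT at 4 h (−0.21) and 6 h (−1.0), Il1rn at 6 h (−1.0), Il1b from 2 h to 6 h in WT (0.047) and in KO (−0.90), and the genotype difference of that change (Il1b −0.95, Il1rn −0.26). Without a flank Il1b turned at 4 h (−0.55) and from 2 h to 6 h in WT (0.61). With lists as deposited it turned there too (0.12), Il18 in KO minus WT at 4 h turned (0.56), and Il18 in KO at 4 h was called (1.54, adjusted p = 0.0209, limma). Without 1 library these ranged from −0.69 to 0.086 (Il18 at 4 h), −0.96 to 1.85 (Il1rn at 6 h) and −0.66 to 0.63 (Il1b from 2 h to 6 h in WT). Deviations of same-numbered libraries from their group means had r of −0.11 to 0.18 over 28 pairs of groups, with 1 over 0.1 and 1 under −0.1. These values cannot show whether same-numbered libraries shared a preparation. With a replicate block Il1b was 3.48 and Il1rn 3.99 higher after R837. In that fit 476 genes were called higher and 2460 lower, and no call of a member changed. The causes of these shifts were not tested. Exact permutation was not run for the genotype difference in response, and Il18 gave no value with 4000 summits, a filter of 4 lists or 1 rank per gene. Read depth is unknown, so what a longer or shorter list could show for Il1a and Il18 is not known.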
